A study of Mus musculus with 6 samples.

Results

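Nodal, activin and the growth factors most like them belong to the TGFβ family, and their signal is read by a shared set of receptors and by Smad2. The genes described here are Gdf3, Inhbb, Nodal, Lefty1, Lefty2, Tdgf1, Acvr1b, Acvr2a, Acvr2b and Smad2, which are 10 of the 18193 genes that the array annotation ties to a probe set of 1 gene. The 10 genes had 18 probe sets (short oligonucleotide sets that each read 1 stretch of transcript), whose log2 values were averaged within each gene. A further probe set that carries the names of both Acvr2a and another gene was left out.

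The samples were mouse embryonic stem (ES) cells in which both copies of Dcr (Dicer1, the RNase that cuts mature miRNAs from their hairpin precursors) are floxed, that is, flanked by sites at which Cre recombinase deletes DNA. Dcr KO cells were transfected with GFP and Cre, and Dcr WT cells, which carry the same floxed alleles, with GFP alone. RNA was taken 5 days later from 3 samples a group, described in the methods as biological triplicates, each hybridised to its own array. Cells grew on gelatin with serum and LIF, a cytokine that keeps mouse ES cells undifferentiated.

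The Dcr KO cells were a polyclonal population, so they may include cells that kept Dcr. The study reports that by this time most cells lacked Dcr and most, though not all, miRNAs were gone. No group received Cre without a floxed gene to delete. An effect of Cre and one of the deletion therefore cannot be told apart. In such bulk samples fewer cells of a type and less RNA per cell cannot be told apart either. P-values measure the spread between these 3 arrays a group. The study describes the cells as a floxed line characterised earlier, so spread between lines was not measured.

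Nodal and activins bind a type II receptor (Acvr2a or Acvr2b), which activates a type I receptor (Acvr1b) that phosphorylates Smad2, and Smad2 then enters the nucleus with Smad4. Nodal and Gdf3 need the coreceptor Tdgf1 (Cripto), which activins do not, and the Lefty proteins, themselves induced by the pathway, block Nodal at the coreceptor and ligand. In the early mouse embryo the pathway patterns the epiblast and induces mesoderm and endoderm, and in cultured ES cells it is active through ligands that the cells make themselves.

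Several members are known miRNA targets in other species, which is why the sequences of the miRNAs concerned are given here. In zebrafish miR-430 represses both a nodal ligand and lefty, in human ES cells miR-302 represses the LEFTY genes, and in Xenopus miR-15 and miR-16 repress the type II receptor Acvr2a. Mouse ES cells express the mir-295 cluster, a run of related miRNAs whose common seed resembles that of miR-302 and miR-430. Mature sequences were taken from RefSeq (GRCm38.p6), where 9 of 11 names searched were found (miR-292a-3p and miR-302a-3p are named only). Capitals mark the seed, bases 2 to 8 from the 5′ end, through which a miRNA pairs with its targets. The first line lies at chr7:3218674-3218697 on the plus strand of GRCm38.p6.
miR-290a-3p: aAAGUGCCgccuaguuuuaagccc
miR-291a-3p: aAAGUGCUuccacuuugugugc
miR-291b-3p: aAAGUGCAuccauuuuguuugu
miR-294-3p: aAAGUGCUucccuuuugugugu
miR-295-3p: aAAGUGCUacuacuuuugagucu
miR-302b-3p: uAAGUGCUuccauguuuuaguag
miR-302d-3p: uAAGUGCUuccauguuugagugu
miR-15a-5p: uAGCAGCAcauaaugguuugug
miR-16-5p: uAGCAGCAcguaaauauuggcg

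Of these 9 names, 7 share the bases AAGUGC at positions 2 to 7, of which 5 go on with U, 1 with C and 1 with A. The other 2 share the seed AGCAGCA. Their levels were not measured on these arrays, and no target site was searched for.

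Dicer1 itself, the check of the labels, had log2 values of 6.33, 6.59 and 5.92 on the Dcr KO arrays, against 7.78, 7.89 and 7.16 on the Dcr WT arrays, a difference of -1.33 ± 0.23 (SE, limma adjusted p = 0.0134). Its probe set 1427941_at differed by -1.84 (limma adjusted p = 0.0138 over probe sets) and 1460571_at by -0.82, which was not called (adjusted p = 0.0908). Where these probe sets lie relative to the deleted exons was not examined here. Array-to-array correlations over the 8782 genes tested ranged within 0.9865 to 0.9965 among Dcr KO arrays, 0.9881 to 0.9917 among Dcr WT arrays and 0.9624 to 0.9842 between the groups. Dcr KO replicate 3 correlated least with the other Dcr KO arrays. It held the lowest Dcr KO gene value of Dicer1 and of every member except Acvr2a and Gdf3, and the highest of Gdf3. Several results that rest on it, but not all, are therefore also given without it.

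Genes were tested where their mean log2 value over the 6 arrays was at least 4, which is 16 on the linear scale, and 9 of the 10 members passed (Inhbb did not). Of the 9, Gdf3 was higher in Dcr KO cells at an adjusted p under 0.05, none was lower and 8 were not called. Over all genes tested, 6.91% were called higher and 6.42% lower. Before adjustment 5 members had a p under 0.05, Gdf3 and Smad2 higher and Tdgf1, Acvr1b and Acvr2b lower, where 14.7% of all genes tested were higher and 17.3% lower at that level. The median log2 difference of the 9 members was -0.21, beside -0.02 over all genes tested.

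The 3 Dcr KO arrays lay wholly above the 3 Dcr WT arrays for 2 of the 9 members (17.7% of all genes tested) and wholly below them for 4 (21.2%). Those above were Gdf3 and Smad2, and those below were Lefty2, Tdgf1, Acvr1b and Acvr2b. By a rule of at least 1.2-fold among genes expressed in Dcr WT cells, with no test, Gdf3 and Smad2 were up (18.1% of such genes were) and Lefty2, Tdgf1 and Acvr2b down (22.0% were). Inhbb and Smad2 also stand in the study's list of candidate mir-295 cluster targets, which was chosen in part on these arrays, so their place in it is not independent evidence of their direction.

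**Figure D1:**
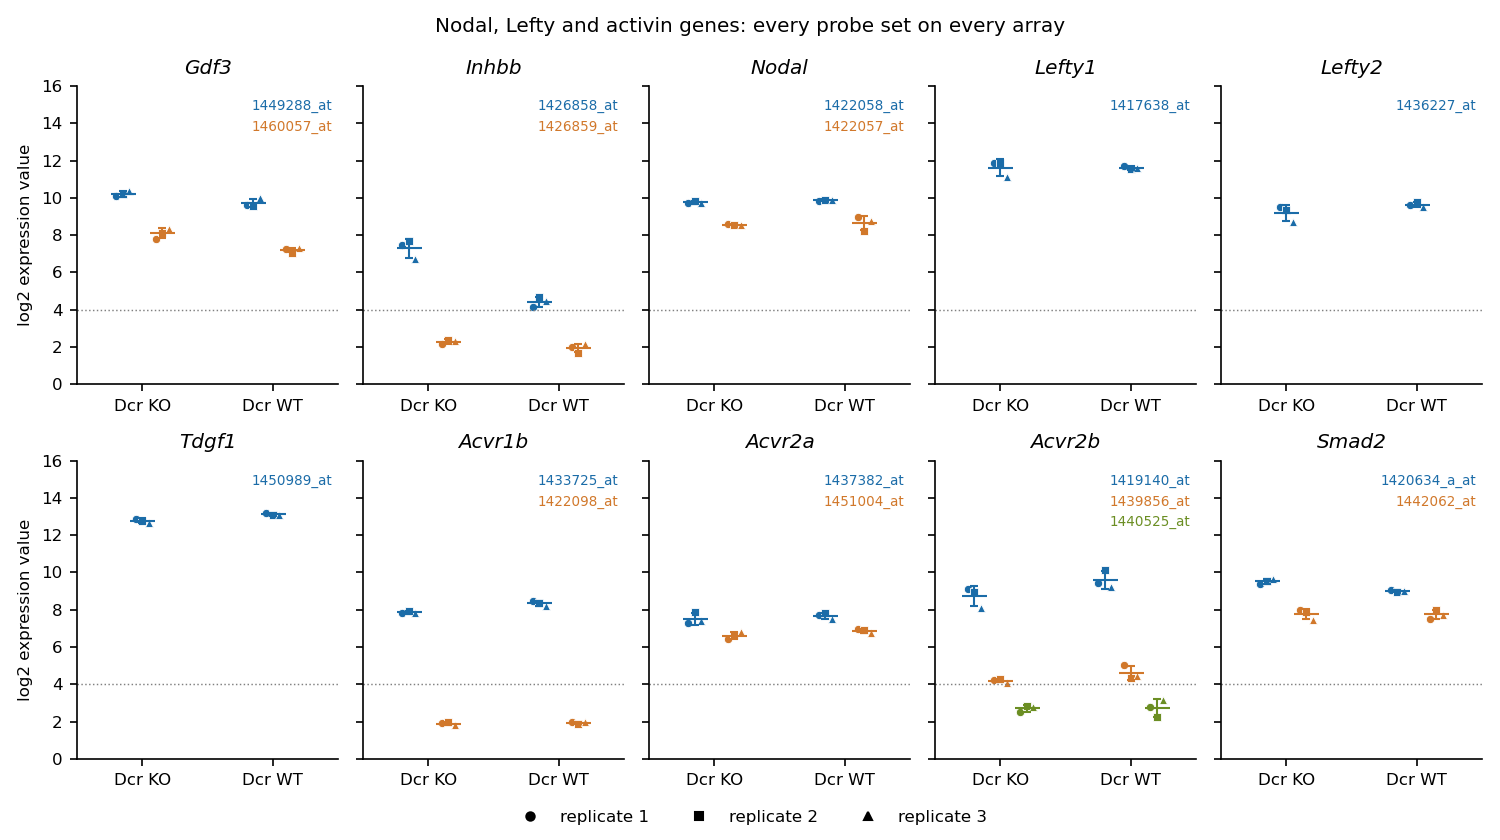
Log2 expression value (y axis) of every probe set of the 10 genes on each array, with Dcr KO arrays left and Dcr WT arrays right in each panel. Symbols mark the replicate, colours the probe set, the bar and whiskers the mean ± SD of 3 arrays, and the dotted line the minimum level of 4; Inhbb 1426858_at shows the widest gap, with 6.70 to 7.69 on Dcr KO arrays and 4.14 to 4.66 on Dcr WT arrays.

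Among the ligands, Gdf3, a relative of Vg1 that is made by pluripotent cells, was the 1 member called at gene level. Its log2 values were 8.94, 9.17 and 9.35 on the Dcr KO arrays, against 8.44, 8.32 and 8.64 on the Dcr WT arrays. Every Dcr KO array was above every Dcr WT array. The difference was 0.69 ± 0.14 (SE; 95% confidence interval 0.37 to 1.01), a 1.61-fold higher level (limma adjusted p = 0.0216), which ranked 302nd in size among the 607 genes called higher.

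Both Gdf3 probe sets were higher in Dcr KO cells on all arrays, to different extents. Probe set 1460057_at read 7.80, 8.13 and 8.33 on the Dcr KO arrays, against 7.24, 7.05 and 7.29 on the Dcr WT arrays, and was 1.86-fold higher (limma adjusted p = 0.0266 over probe sets). Probe set 1449288_at read 10.07, 10.21 and 10.37 on the Dcr KO arrays, against 9.63, 9.58 and 9.98 on the Dcr WT arrays, and its difference of 0.49 was not called (adjusted p = 0.0954). Of the 15 member probe sets bright enough to test, 3 were called higher and 0 lower, where 4.69% of all probe sets tested were called higher and 3.07% lower.

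The Gdf3 call depended on single arrays. Without Dcr KO replicate 2 the adjusted p was 0.0701, without Dcr WT replicate 1 it was 0.0557 and without Dcr WT replicate 2 it was 0.0549, while the difference stayed within 0.59 to 0.80 over the 6 fits that each left out 1 array. Without Dcr KO replicate 3 the difference was 0.59 and the call held. Probe set 1460057_at was still called in 1 of these 6 fits, that without Dcr KO replicate 1, and its adjusted p-values ran from 0.0397 to 0.102 with differences of 0.77 to 1.04.

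Inhbb encodes the βB subunit, which pairs with itself to form activin B. It held the greatest difference of the 10 genes, carried by 1 of its 2 probe sets. Probe set 1426858_at read 7.48, 7.69 and 6.70 on the Dcr KO arrays, against 4.14, 4.66 and 4.46 on the Dcr WT arrays. The groups were far apart, and the Dcr WT values lay just above the minimum level. The mean was 7.29 ± 0.52 in Dcr KO cells and 4.42 ± 0.26 in Dcr WT cells (SD, n = 3 each), a difference of 2.87 ± 0.27 (SE; 95% confidence interval 2.22 to 3.52).

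On the linear scale Inhbb 1426858_at was 7.31-fold higher in Dcr KO cells (limma adjusted p = 0.00612), which ranked 14th among the 881 probe sets called higher. Leaving out each array in turn gave differences of 2.67 to 3.17, each still called, with adjusted p-values of 0.0100 to 0.0358. Dcr KO replicate 3 was the lowest of its group, and without it the difference was 3.17.

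The other Inhbb probe set, 1426859_at, read 2.15, 2.39 and 2.29 on the Dcr KO arrays, against 1.99, 1.69 and 2.14 on the Dcr WT arrays. These values are below the median of all probe sets on each array, which was 2.96 to 3.01, and the probe set was not tested. Its dimness put the gene mean at 3.98, under the minimum, so Inhbb as a gene had no test although its difference was 1.60 on the log2 scale.

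Nodal, the ligand that gives the pathway its name, was nearly level between the groups. Its gene values were 9.16, 9.18 and 9.13 on the Dcr KO arrays, against 9.40, 9.07 and 9.33 on the Dcr WT arrays. The Dcr KO values lay inside the range of the Dcr WT values. The difference was -0.11 (95% confidence interval -0.37 to 0.16, limma adjusted p = 0.555), so a change beyond that interval was not seen, and a smaller one could not be resolved.

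Both Nodal probe sets gave the same picture. Probe set 1422058_at averaged 9.75 ± 0.06 in Dcr KO cells and 9.87 ± 0.04 in Dcr WT cells (SD, n = 3 each). Probe set 1422057_at averaged 8.56 ± 0.05 in Dcr KO cells and 8.65 ± 0.38 in Dcr WT cells (SD, n = 3 each). The wider Dcr WT spread of the second came from replicate 2, at 8.23, below the other Dcr WT arrays at 8.97 and 8.76. Adjusted p-values were 0.470 and 0.788.

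**Figure D2:**
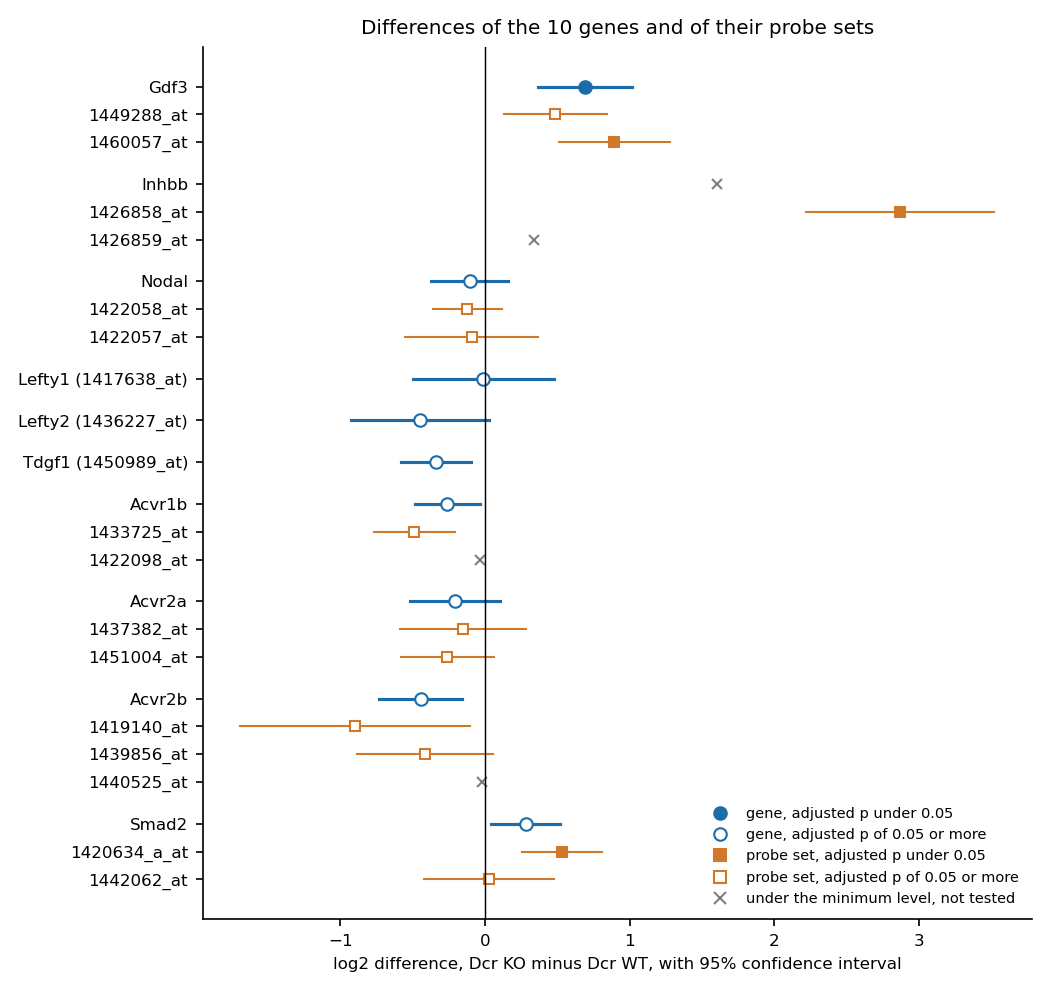
The x axis gives Dcr KO minus Dcr WT on the log2 scale, with 95% confidence intervals, for genes (circles) and probe sets (squares); filled symbols had an adjusted p under 0.05 and crosses were under the minimum level and not tested. The filled symbols, Gdf3, its probe set 1460057_at, Inhbb 1426858_at and Smad2 1420634_a_at, all lie right of 0.

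The Lefty genes code for the secreted antagonists, and each has 1 probe set. Lefty1 read 11.88, 11.87 and 11.09 on the Dcr KO arrays, against 11.73, 11.52 and 11.62 on the Dcr WT arrays. Replicates 1 and 2 of Dcr KO were above every Dcr WT array and replicate 3 was below them all. The difference was -0.01 ± 0.21 (SE; 95% confidence interval -0.50 to 0.48, limma adjusted p = 0.981). Its sign turned without Dcr KO replicate 3, at 0.25, and without Dcr WT replicate 1, at 0.04, and neither was called.

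Lefty2 read 9.52, 9.36 and 8.70 on the Dcr KO arrays, against 9.63, 9.76 and 9.53 on the Dcr WT arrays. Each Dcr KO array was below each Dcr WT array, replicate 1 by only 0.01 from the lowest Dcr WT array. The Dcr KO mean was 73.4% of the Dcr WT mean (difference -0.45 ± 0.21, SE; 95% confidence interval -0.92 to 0.03), which was not called (limma adjusted p = 0.177). Without Dcr KO replicate 3 the difference was -0.20.

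The same array, Dcr KO replicate 3, was lowest for both antagonists, so the step from Lefty1 to Lefty2 within each array is given as well, a description chosen after these values were seen and not tested. Lefty2 minus Lefty1 was -2.36, -2.51 and -2.39 on the Dcr KO arrays, against -2.10, -1.76 and -2.09 on the Dcr WT arrays. The Dcr KO arrays agreed closely here, and all 3 were below the Dcr WT arrays. The step was -2.42 ± 0.08 in Dcr KO cells and -1.98 ± 0.19 in Dcr WT cells (SD, n = 3 each), a difference of -0.44.

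In RefSeq's gene order (GRCm38.p6) Lefty2 lies 2 protein-coding places from Lefty1, and Gdf3 lies beside Apobec1 and Dppa3, with Nanog the next beyond Dppa3. The neighbours of Gdf3 were not called: Dppa3, a germ cell and ES cell gene, differed by -0.21 (limma adjusted p = 0.334), Nanog by 0.00 and Apobec1 by -0.49 (adjusted p = 0.0753). Beside Inhbb, Gli2, a mediator of Hedgehog signalling, differed by 0.57 (adjusted p = 0.0528) and Ralb by -0.17 (adjusted p = 0.260), and neither was called.

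Tdgf1, the coreceptor, is also a classical marker of undifferentiated ES cells. It read 12.89, 12.79 and 12.64 on the Dcr KO arrays, against 13.18, 13.09 and 13.07 on the Dcr WT arrays. The groups did not overlap, and the spread within each was small. The Dcr KO mean was 79.0% of the Dcr WT mean (difference -0.34 ± 0.10, SE; 95% confidence interval -0.58 to -0.10), with an unadjusted limma p of 0.0121 and an adjusted p of 0.0685. It was not called when any single array was left out, with differences of -0.40 to -0.27.

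The receptors all had lower means in Dcr KO cells, and none was called. Acvr2b, the type II receptor with the lowest adjusted p, had gene values of 5.28, 5.36 and 5.00 on the Dcr KO arrays, against 5.77, 5.58 and 5.61 on the Dcr WT arrays. All Dcr KO values were below all Dcr WT values. The Dcr KO mean was 73.5% of the Dcr WT mean (difference -0.44 ± 0.12, SE, limma adjusted p = 0.0538), and the difference was -0.34 without Dcr KO replicate 3.

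The brightest Acvr2b probe set, 1419140_at, read 9.10, 8.95 and 8.10 on the Dcr KO arrays, against 9.46, 10.16 and 9.22 on the Dcr WT arrays. Its arrays spread widely in both groups without overlapping, and Dcr KO replicate 3 was well below the other Dcr KO arrays. The difference of this probe set without that array is not given here. It stood at 53.7% of the Dcr WT level (difference -0.90; 95% confidence interval -1.69 to -0.10) and was not called (limma adjusted p = 0.142). Probe set 1439856_at differed by -0.41 (adjusted p = 0.229), and 1440525_at, at 2.51 to 2.84 on the Dcr KO arrays and 2.24 to 3.17 on the Dcr WT arrays, was too dim to test.

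Acvr2a, the other type II receptor and the miR-15 and miR-16 target known from Xenopus, read 6.86, 7.27 and 7.08 on the Dcr KO arrays, against 7.34, 7.36 and 7.13 on the Dcr WT arrays. The groups overlapped. The difference was -0.21 (95% confidence interval -0.51 to 0.10, limma adjusted p = 0.325), with -0.15 for probe set 1437382_at and -0.26 for 1451004_at.

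Acvr1b, the type I receptor (ALK4), was measured by 1 bright probe set and 1 dim one. Probe set 1433725_at read 7.84, 7.95 and 7.80 on the Dcr KO arrays, against 8.49, 8.34 and 8.22 on the Dcr WT arrays. The groups were apart, and the Dcr KO mean was 71.4% of the Dcr WT mean (difference -0.49 ± 0.12, SE), which was not called at a limma adjusted p of 0.0537 over probe sets, although it was called lower with each array centred on its median. The dim probe set, 1422098_at, stayed within 1.81 to 1.95 on the Dcr KO arrays and 1.85 to 1.98 on the Dcr WT arrays. Averaging the bright and the dim probe set gave a gene difference of -0.26 (adjusted p = 0.112), and with the bright one alone Acvr1b was called lower (adjusted p = 0.0305).

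Smad2, which carries the signal to the nucleus, had higher gene values in Dcr KO cells. They were 8.70, 8.72 and 8.56 on the Dcr KO arrays, against 8.29, 8.48 and 8.37 on the Dcr WT arrays. The groups did not overlap, and the 1.22-fold difference was not called (0.28 ± 0.10, SE, limma adjusted p = 0.104).

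The 2 Smad2 probe sets differed in how far they moved. Probe set 1420634_a_at read 9.39, 9.56 and 9.66 on the Dcr KO arrays, against 9.06, 8.95 and 9.00 on the Dcr WT arrays, was 1.45-fold higher and was called (limma adjusted p = 0.0411). It ranked 831st of the 881 probe sets called higher. Leaving out any 1 of the 6 arrays ended the call (adjusted p = 0.0680 to 0.139), with differences of 0.47 to 0.61. Probe set 1442062_at read 8.0, 7.87 and 7.46 on the Dcr KO arrays, against 7.51, 8.0 and 7.73 on the Dcr WT arrays, which overlap, and differed by 0.03 (adjusted p = 0.93).

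**Figure D3:**
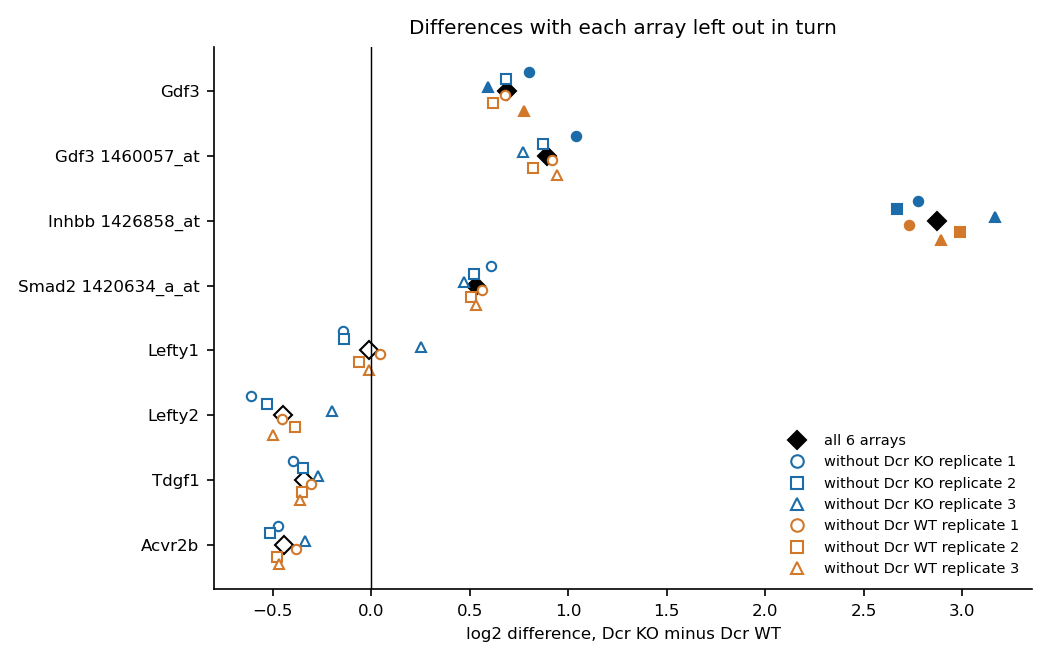
The x axis gives Dcr KO minus Dcr WT in log2 units with all 6 arrays (diamonds) and with each array left out in turn (blue for a Dcr KO array, orange for a Dcr WT array, symbol by replicate); filled symbols had an adjusted p under 0.05. Inhbb 1426858_at stays filled throughout, between 2.67 and 3.17, and Lefty1 crosses 0.

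The other genes of the pathway, listed by role, numbered 59, of which 55 were named on the array (the other 4 were not analysed here) and 38 were bright enough to test. Of the 38, 2 were called higher and 0 lower, and 36 were not called, beside 6.91% and 6.42% of all genes, and 1 of the 2, Cfc1, reached the minimum only through the Dcr KO arrays. Before adjustment 8 were higher and 5 were lower in Dcr KO cells at a limma p under 0.05, beside 14.7% and 17.3% of all genes tested. The median log2 difference was 0.11, against -0.02 over all genes tested.

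Cfc1 (Cryptic), the coreceptor related to Tdgf1, was 1 of the 2 genes called. It read 4.57, 4.17 and 4.44 on the Dcr KO arrays, against 3.34, 3.67 and 3.88 on the Dcr WT arrays. The groups did not overlap. Every Dcr WT array was under the minimum of 4, so Cfc1 was tested only through its Dcr KO arrays and its call is no support for a change of the list. The difference was 0.76 ± 0.17 (SE, limma adjusted p = 0.0261). With 1 array left out its mean passed the minimum in 3 of 6 fits, and it was not called without Dcr WT replicate 1 (adjusted p = 0.0572) or replicate 2 (adjusted p = 0.0574).

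The other called gene was Zfyve16 (endofin), an endosomal protein with a FYVE domain that binds Smad proteins. It read 6.4, 6.08 and 6.35 on the Dcr KO arrays, against 5.67, 5.84 and 5.55 on the Dcr WT arrays. The Dcr KO arrays were all higher, by 0.59 ± 0.13 on average (SE, limma adjusted p = 0.0260). The call was lost without Dcr KO replicate 1 (adjusted p = 0.0689) or 3 (0.0661) and without Dcr WT replicate 1 (0.0641) or 3 (0.0839). Hgs, which with the list's Zfyve9 and Zfyve16 makes up the genes of Smad2 access, differed by 0.11.

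Among the other receptors Eng (endoglin), a coreceptor for TGFβ and BMP ligands, differed by 0.59 (limma adjusted p = 0.0910). Of the ligands outside the 10 genes only Bmp4, which signals through other Smads, was bright enough to test, and it differed by 0.31 (adjusted p = 0.234). Inhba, the gene of the activin A subunit, stayed at 2.08 to 2.36 on the Dcr KO arrays and 1.99 to 2.2 on the Dcr WT arrays, and the inhibin α subunit gene Inha at 1.77 to 1.95 on the Dcr KO arrays and 1.72 to 1.85 on the Dcr WT arrays. Both stood below the minimum level on every array, unlike the bright Inhbb probe set.

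None of the 6 extracellular inhibitors and processing genes tested was called. Fstl1, a follistatin-like secreted protein, differed by 0.44 (limma adjusted p = 0.0552). Fst (follistatin), which binds and blocks activin, read 5.19, 5.13 and 6.53 on the Dcr KO arrays, against 5.03, 5.50 and 4.42 on the Dcr WT arrays. The groups overlapped, with Dcr KO replicate 3 far above the rest (adjusted p = 0.317).

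None of the 9 SMADs and nuclear partners was called. Before adjustment Smad3 was higher, and Foxh1, Mixl1, Drap1 and Smad4 were lower, in Dcr KO cells at a p under 0.05. Foxh1, the DNA-binding partner of Smad2 at Nodal-responsive genes, read 6.13, 6.20 and 6.34 on the Dcr KO arrays, against 6.69, 6.44 and 6.61 on the Dcr WT arrays. All Dcr KO values were lower, by 0.36 on average (difference -0.36, limma adjusted p = 0.0708). Mixl1, a homeobox gene of the primitive streak that is also a target of the pathway, differed by -0.64 (adjusted p = 0.109). Smad4 differed by -0.27 (adjusted p = 0.128), Drap1 by -0.29 (adjusted p = 0.139) and Smad3 by 0.34 (adjusted p = 0.135). The only Smad3 probe set bright enough to test differed by 0.11, with overlap (limma adjusted p = 0.699 over probe sets). Its dim probe sets, untested, differed by 0.36 and 0.54 with overlap, so the higher Smad3 gene value rests mainly on them. The brightest Smad4 probe set differed by -0.06 (adjusted p = 0.788) and the others by -0.32 and -0.44 (adjusted p = 0.222 and 0.130).

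The 10 negative regulators tested inside the cell included no call. The lowest p-values were those of Ppm1a, a phosphatase that acts on Smad2 and Smad3, which differed by 0.29 (limma adjusted p = 0.110), and of Pmepa1, an inhibitor that is itself induced by the pathway, which differed by 0.22 (adjusted p = 0.192).

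Of the known target genes, 9 were tested and none was called. Otx2, a homeobox gene of the epiblast and forebrain, read 5.36, 5.86 and 5.47 on the Dcr KO arrays, against 7.05, 5.93 and 6.47 on the Dcr WT arrays. The groups were just apart, and the Dcr WT arrays spread over more than 1 log2 unit (difference -0.92, limma adjusted p = 0.0604). Higher without overlap were Id3, by 0.31 (limma adjusted p = 0.0853), Pou5f1, by 0.38 (limma adjusted p = 0.138), and Pmepa1, given above. The median log2 difference of the 9 was 0.0. Another 6 targets were under the minimum level and not tested: Gsc differed by 0.42, Foxa2 by 0.01, Wnt3 by -0.01 and Cer1 by -0.15, each with overlap, and Fgf8 and Fgf5 are given in full, picked after their values were seen. Fgf8 read 2.5, 2.27 and 2.49 on the Dcr KO arrays, against 4.28, 4.21 and 3.33 on the Dcr WT arrays. Fgf5, a marker of the epiblast after implantation, read 3.52, 3.44 and 2.49 on the Dcr KO arrays, against 4.49, 4.35 and 4.19 on the Dcr WT arrays. Both were lower on every Dcr KO array than on any Dcr WT array.

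**Figure D4:**
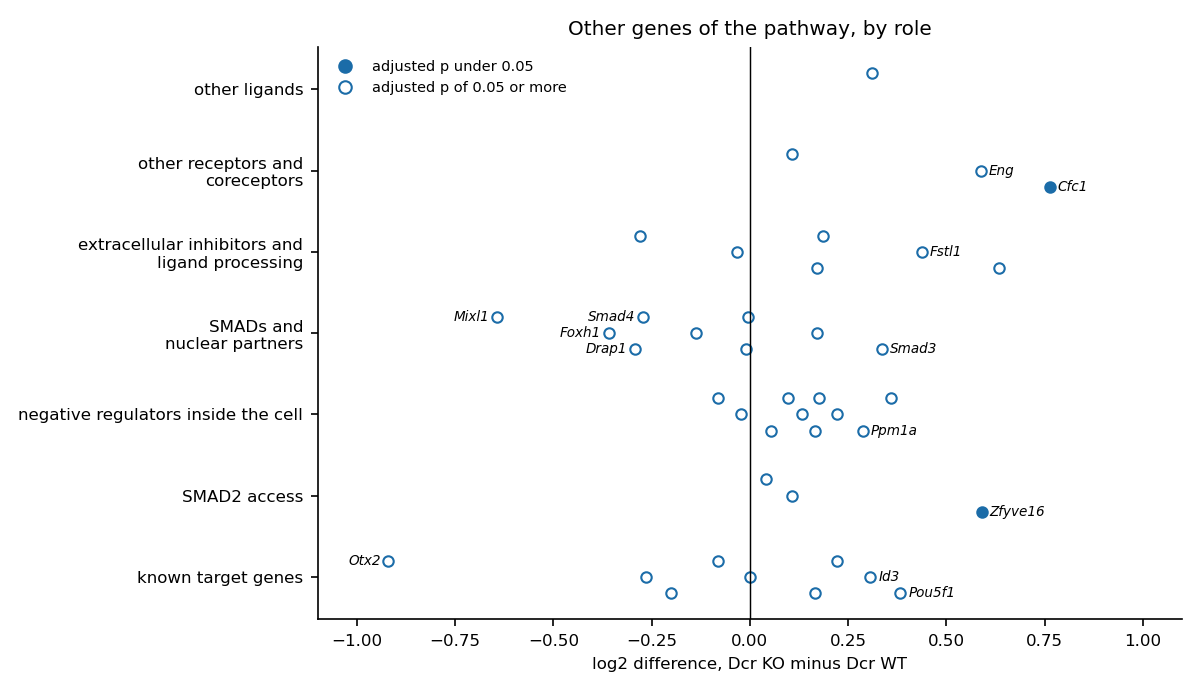
Each circle is a tested gene of the pathway list, in a row for its role, at its Dcr KO minus Dcr WT difference in log2 units (x axis); filled circles had an adjusted p under 0.05 and names are given where the unadjusted p was under 0.05, and a gene listed under 2 roles is drawn in both. The filled circles are Cfc1 at 0.76 and Zfyve16 at 0.59, and Otx2 lies lowest at -0.92.

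The cells held the markers of ES cells in both groups. All 10 ES cell genes listed, Tdgf1 among them, were above the minimum, and none was called. Without overlap, Pou5f1 differed by 0.38, Sox2 by 0.33, Zfp42 by 0.29 and Dppa5a by 0.09, and Utf1 by -0.25 and Tdgf1 by -0.34. The groups overlapped for Nanog, Klf4, Esrrb and Fgf4. The summed linear value of all 10 was 49978 to 51322 on the Dcr KO arrays and 45218 to 49591 on the Dcr WT arrays. Markers of primitive endoderm were above the minimum for 2 of 7 genes. Of these Lama1, a laminin chain, was higher by 0.52 (limma adjusted p = 0.0409) and Dab2 differed by -0.07 (adjusted p = 0.679), while Gata4, Gata6, Sox17, Sox7 and Afp were under the minimum (of these Gata6 differed by 0.32 with no overlap). Summed over all 7, the linear value was 246.8 to 265.0 on the Dcr KO arrays and 172.2 to 217.3 on the Dcr WT arrays, most of it from Lama1.

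Among markers of the primitive streak, 2 of 5 genes were above the minimum and Gsc, Foxa2 and Mesp1 were under it, and the sum over all 5 was 103.9 to 116.5 on the Dcr KO arrays and 103.2 to 185.5 on the Dcr WT arrays. Of 4 neural markers Nes was above the minimum, with a sum over all 4 of 36.9 to 37.0 on the Dcr KO arrays and 27.5 to 34.4 on the Dcr WT arrays. Sox1 and Pax6, under the minimum and not tested, differed by 0.89 and 0.58 with no overlap, and Neurog2 by -0.03.

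Of 5 trophectoderm markers Gata3 and Krt7 were above the minimum, with a sum over all 5 of 239.0 to 450.2 on the Dcr KO arrays and 213.7 to 436.3 on the Dcr WT arrays. Gata3 differed by 0.84 (limma adjusted p = 0.0621) and Krt7 by 0.04, and of those under the minimum Cdx2 differed by 0.48 with no overlap, Elf5 by -0.04 and Hand1 by 0.06. Of 6 fibroblast markers Col1a1 was above the minimum, with a sum over all 6 of 57.1 to 67.9 on the Dcr KO arrays and 46.7 to 67.8 on the Dcr WT arrays. The others, untested, went both ways without overlap, Col3a1 by 1.22, Dcn by 0.65, Col1a2 by -0.71 and Thy1 by -0.62, except Twist2, which overlapped. No gene of these 4 lists was called, and the part of such cells in the differences above was not tested.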

How the data were processed

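Total RNA of 3 Dcr KO and 3 Dcr WT samples was hybridised to Affymetrix mouse arrays. Values deposited by the authors are on the log2 scale and cover 45037 probe sets on each array. GCRMA 2.20.0 and R 2.11.1 are the tools in the submitters' processing notes, which name no genome build. GCRMA subtracts a background that depends on probe sequence, so differences of dim probe sets may be less certain. For a supplementary figure the study normalized its acute Dcr deletion samples together with lines that had lost Dcr for longer. The sources used here do not give whether the deposited values were normalized in that way. The files carry no detection calls, and with 6 arrays precision is low.

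Of the probe sets, 34945 carried 1 gene symbol in the platform annotation, 932 several and 9160 none here; the last 2 kinds were left out of gene values. Log2 values of probe sets were averaged within a gene. Dcr KO was compared with Dcr WT with limma 3.58.1 under R 4.3.3 (lmFit, then eBayes), on 8782 genes and separately on 18789 probe sets whose mean over the 6 arrays reached 4. Benjamini-Hochberg adjustment ran over all genes or probe sets tested, and calls were made under 0.05. The fitting steps were tested on simulated data.

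Named genes are the 10 members with all probe sets, the pathway genes past the threshold, the 2 with the smallest p of each role, and Dicer1, beside those said to be picked later. Other pathway genes, the neighbours and the markers were added as context. The members and lists were chosen with earlier results of these data known. Alternatives were a replicate block, no filter, a minimum of 6, the brightest probe set of a gene, arrays centred on their medians, quantile normalization, eBayes with trend and robust options, and each array left out in turn. No array column was left unused (0 columns).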

Additional observations from a re-analysis of the deposited data

How the results depend on the processing

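Direction was kept by Gdf3, Nodal, Lefty2, Tdgf1, Acvr1b, Acvr2a, Acvr2b and Smad2 under every alternative run, and Lefty1 turned from -0.01 to 0.00083 after quantile normalization, to 0.25 without Dcr KO replicate 3 and to 0.04 without Dcr WT replicate 1 (range -0.14 to 0.25 with each array left out). The number of members called, 1 in the fit reported (Gdf3), was 2 with no filter on low values (Gdf3 and Inhbb), 3 with the brightest probe set of each gene (Inhbb and Smad2 higher, Acvr1b lower, and Gdf3 lost at an adjusted p of 0.0590), 2 after quantile normalization (Gdf3 higher, Acvr2b lower), 2 with eBayes trend and robust options (Gdf3 higher, Tdgf1 lower) and 0 to 2 with each array left out. Left-out fits called Gdf3 without Dcr KO replicate 1 or 3, and no member without Dcr KO replicate 2. They called Inhbb and not Gdf3 without Dcr WT replicate 1 or 2, and both without Dcr WT replicate 3. Inhbb reached the minimum only where a Dcr WT array was dropped, so it was tested there through its higher Dcr KO arrays. Member probe sets called, 3 in all, numbered 4 with arrays centred on their medians (Acvr1b 1433725_at lower as well), 2 with no filter (Smad2 1420634_a_at lost, adjusted p = 0.0517) and 1 to 2 with each array left out. Pathway genes called, 2 in the fit reported, numbered 4 with no filter (Cfc1 and Zfyve16 higher, Fgf5 and Fgf8 lower), 1 with a minimum of 6 (Fstl1 higher), 3 with the brightest probe set (Cfc1 and Zfyve16 higher, Fgf5 lower), 3 with trend and robust options (Fstl1 higher as well) and 0 to 4 with each array left out, when Otx2 was called lower and Eng and Fstl1 higher without Dcr WT replicate 2, and Mixl1 lower without Dcr WT replicate 3. With the replicate block, 1 member (Gdf3), 1 member probe set (Inhbb 1426858_at) and 0 pathway genes were called. Deviations from the group means correlated at -0.22, -0.02 and 0.03 between same-numbered arrays. Between arrays of different number they correlated at -0.23 to 0.31. With 3 arrays a group these values cannot decide whether the numbers pair the samples. Over all 8782 genes tested, 607 higher and 564 lower calls became 354 and 243 with the block, 220 to 465 and 137 to 376 with each array left out. They were 748 and 778 of 9702 with the brightest probe set, and 700 and 597 of 18193 with no filter. A minimum of 6 gave 404 and 432 of 5771, and centred arrays 558 and 575 of 8782. Quantile normalization gave 562 and 624 of 8781, and trend and robust options 634 and 649 of 8782. Over 18789 probe sets, 881 and 576 became 221 and 43 with the block, 143 to 755 and 23 to 302 with each array left out. They were 906 and 470 of 45037 with no filter, and 827 and 584 of 18789 with centred arrays. Fewer samples enter the fits that leave an array out, and the cause of the other shifts was not tested. Of the 18 member probe sets, 3 were under the minimum level and not tested.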
